A study of Mus musculus with 20 samples.

Results

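The genes described here bring fatty acids into muscle fibres and take them through mitochondrial beta-oxidation. They are a named list of 35 genes, matched by symbol to the 53465 gene identifiers of the deposited tables, and all 35 were found. All 35 passed the filter on low counts, which left 15709 genes for testing. Together they took 0.448 to 0.742% of the counts of a library.

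RNA was measured in muscle of wild-type (WT) mice in 20 libraries. Of these, 10 came from females, 5 of them trained and 5 non-trained, and 10 from males, divided likewise, so that 4 groups of 5 libraries were compared. The series is about exercise, age and the mitochondria of muscle. The labels used here do not say which muscle was taken, how old the animals were, how they were trained, how long after the last bout RNA was taken, or whether each library is a separate animal. The p-values below therefore measure only the spread between these samples, which may be technical. Libraries are named by their group and a number from 1 to 5 that does not pair them across groups.

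Fatty acids reach the fibre from the capillary, where lipoprotein lipase frees them from triglyceride, or from the fibre's own lipid droplets. Inside, they are bound to carrier proteins, joined to coenzyme A and moved into the mitochondrion as carnitine esters. There a cycle of dehydrogenation, hydration, a further dehydrogenation and thiolysis shortens them, and the electrons of the first step pass through electron transfer flavoprotein to ubiquinone. Oxidative fibres use this route most, and the nuclear receptors of the PPAR family drive many of its genes.

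Hadha and Hadhb, the alpha and beta subunits of the mitochondrial trifunctional protein, start back to back, so the stretch that separates them is shown here, a choice made after their values were seen. It lies at chr5:30155163-30155247 (plus strand, 85 bases), from the base after the annotated start of Hadha to the base before that of Hadhb, and no GENCODE M21 exon overlaps it. The windows of 250 bases before the RefSeq starts of 4 acyl-CoA dehydrogenase paralogs are shown beside it, because these enzymes do the same reaction on chains of different length. They lie at chr1:66863310-66863559 (Acadl), chr3:153944644-153944893 (Acadm), chr5:115119347-115119596 (Acads) and chr11:70015429-70015678 (Acadvl), all on the minus strand. Capitals mark GC boxes (GGGCGG on either strand). All sequences are RefSeq's, build GRCm38.p6, written 5′ to 3′ on the strand named.
Hadha to Hadhb: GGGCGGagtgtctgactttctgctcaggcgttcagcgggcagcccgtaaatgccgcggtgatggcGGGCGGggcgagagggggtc
Acadl: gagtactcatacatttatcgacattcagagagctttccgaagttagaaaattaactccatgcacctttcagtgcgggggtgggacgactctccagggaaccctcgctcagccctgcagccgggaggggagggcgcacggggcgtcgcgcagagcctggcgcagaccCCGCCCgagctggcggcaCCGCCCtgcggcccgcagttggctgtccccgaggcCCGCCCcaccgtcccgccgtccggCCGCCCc
Acadm: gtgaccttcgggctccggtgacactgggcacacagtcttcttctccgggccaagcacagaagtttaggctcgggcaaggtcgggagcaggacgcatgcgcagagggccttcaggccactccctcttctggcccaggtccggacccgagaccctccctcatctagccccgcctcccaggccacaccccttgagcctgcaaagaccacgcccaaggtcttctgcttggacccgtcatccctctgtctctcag
Acads: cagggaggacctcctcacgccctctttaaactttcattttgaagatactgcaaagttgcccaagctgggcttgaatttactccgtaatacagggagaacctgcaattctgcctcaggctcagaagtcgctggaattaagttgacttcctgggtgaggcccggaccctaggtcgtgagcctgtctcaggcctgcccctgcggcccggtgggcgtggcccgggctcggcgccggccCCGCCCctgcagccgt
Acadvl: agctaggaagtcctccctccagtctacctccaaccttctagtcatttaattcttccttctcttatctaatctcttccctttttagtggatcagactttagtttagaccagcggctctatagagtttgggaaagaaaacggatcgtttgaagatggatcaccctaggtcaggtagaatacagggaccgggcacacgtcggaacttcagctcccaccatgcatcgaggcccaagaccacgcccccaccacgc

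The stretch between Hadha and Hadhb holds 2 GC boxes, the Acadl window holds 4, the Acads window 1, and the other two none. Of the 35 genes, 28 had promoter windows in the RefSeq table, 31 windows in all. Acaa2, Decr1, Lpl, Crat, Cpt1b, Acot13 and Acad9 had none there. A GC box stood in 19 of the 31 windows (18 genes), against 32.7% of all 32851 windows of the same length. The CCAAT box (CCAAT, either strand) stood in 14 of 31, against 33.8%, the TATA box (TATAAA) in 1, against 12.4%, and the E-box CAGCTG in 5, against 13.0%. The element bound by PPAR with its partner RXR (a repeat of AGGTCA with 1 base between the copies) was in 0 of 31 windows and in 0.0335% of all windows. The extended site of estrogen-related receptors (TNAAGGTCA) was in 0 of 31 and in 1.14%. The absence of these letters says nothing about binding outside the windows or to other letters.

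Depth ran from 22043145 to 38483572 expected counts per library. All 10 skeletal muscle fibre markers were above 0 in all 20 libraries. Of the 5 heart markers, Myh6, Tnni3 and Tnnt2 were also above 0 in all 20, Nppa was at 0 in 12 and Myl7 in all 20. All 10 slow fibre markers were above 0 throughout, but their summed TPM (a level per transcript length, scaled to the same total in each library) differed widely. It was 1325 in non-trained female 3 and 4268 to 5281 in the other non-trained females, and 553.7 in trained female 3 and 3647 to 6720 in the other trained females. In males it was lower, at 389.2 to 1917 without training and 890.4 to 2143 with it. Non-trained female 3 and trained female 3 therefore stood apart from their groups, and the medians of the 35 genes, the values of Acad9 and the calls between the sexes are also given without them. In these bulk libraries, fewer fibres of a type and less RNA per fibre cannot be told apart.

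No fatty acid gene passed the test for training in either sex. In females, 30 of the 35 had a log2 difference (trained minus non-trained) above 0, with a median of 0.11 and a range from -0.24 to 0.67. In males, 33 of 35 were above 0, with a median of 0.20 and a range from -0.19 to 0.50. In the mean of both sexes 34 of 35 were above 0, with a median of 0.16, and the exception was Mlycd. Over all 15709 genes, 50.9%, 49.9% and 50.6% were above 0 in these comparisons, with medians of 0.0035, -0.0002 and 0.0020. The interaction (the male training difference minus the female) was above 0 for 24 of 35, with a median of 0.09, against 50.1% of all genes. These counts are no test of the list, since the genes of a library share its deviations. Differences of this size are close to the error of a single gene, whose standard error (SE) had a median of 0.13 within a sex.

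edgeR's quasi-likelihood test with Benjamini-Hochberg adjustment called 0 of 35 genes in females, 0 in males, 0 in their mean and 0 in the training by sex interaction. Over all genes tested it called 0% in females, 0% in males, 0.0127% in the mean and 0% in the interaction. DESeq2 and limma-voom also called 0 of the 35 in each of these. At an unadjusted p under 0.05, 2 of the 35 were higher in trained females, against 4.27% of all genes. In males 8 of 35 were higher, against 2.24%, and in the mean 10 of 35, against 4.69%. None of the 35 was lower at that level in these 3 comparisons, against 4.3%, 2.06% and 4.49% of all genes. The smallest adjusted p of a member was 0.43 in females, 0.99 in males and 0.30 in the mean.

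The female figures rested on few libraries. Without non-trained female 3 the median was 0.048 with 23 of 35 above 0, without trained female 2 it was 0.049 with 21 above 0, and without non-trained female 4 it was 0.18 with 32 above 0. Without non-trained female 3 and trained female 3 together, a choice made after seeing the data, the median was 0.12 with 28 above 0, and in the mean of both sexes 0.16 with 33 above 0. In males the median stayed between 0.14 and 0.25 whichever library was left out. The median of the interaction moved most. It was 0.02 with 20 of 35 above 0 without non-trained female 4, 0.04 without non-trained male 2 or 3, and 0.05 without trained male 5. It was 0.16 without non-trained female 3 or trained female 2, 0.17 without non-trained male 1 and 0.14 without non-trained male 5. Without both low slow-fibre female libraries it was 0.11 with 27 above 0.

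**Figure D1:**
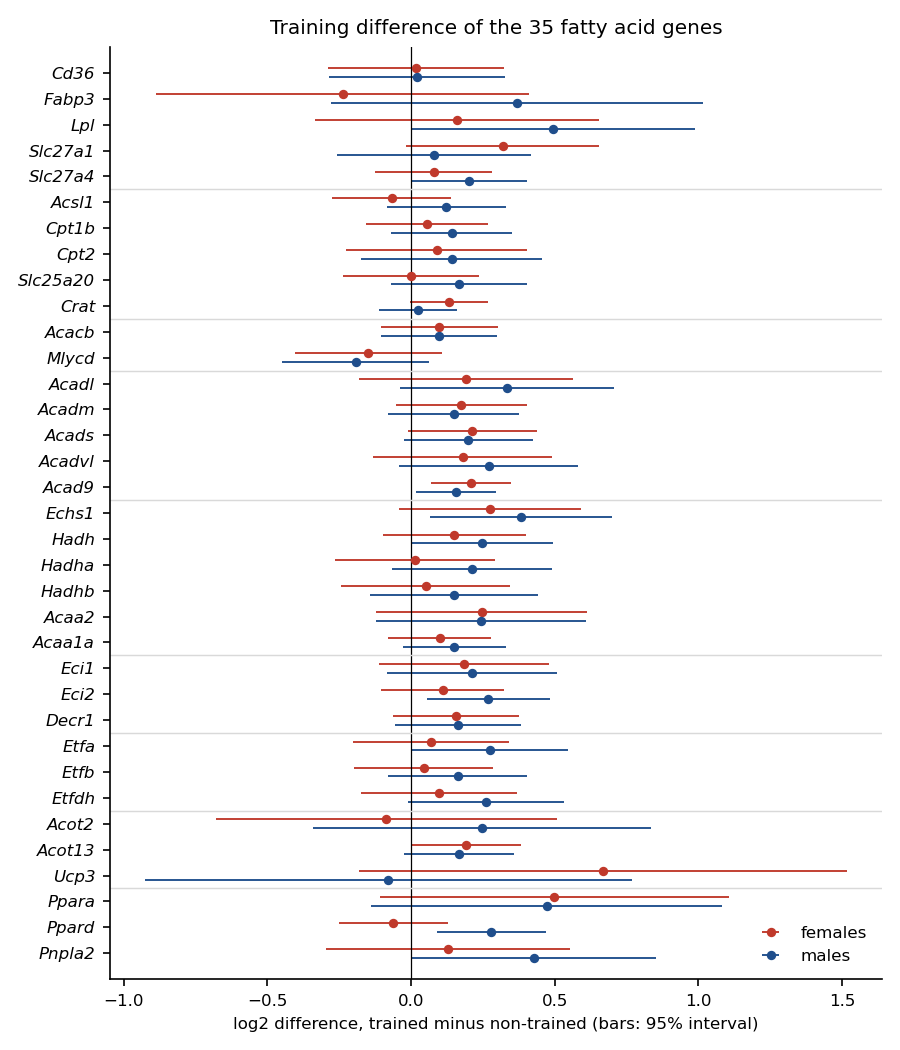
Log2 difference between trained and non-trained mice (x axis) for each of the 35 genes (y axis, ordered by role with grey lines between roles), in females (red) and males (blue), 5 against 5 libraries each. Points are edgeR estimates and bars 95% intervals. Points lie right of 0 for 30 genes in females and 33 in males, and most intervals cross 0.

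Within each group the 35 genes were high or low together in a few libraries. Trained female 2 was the highest of its group in 28 of the 35 genes, against 27.5% of all genes tested, and non-trained female 4 in 20 of 35, against 21.9%. Non-trained female 3 was the lowest of its group in 25 of 35, against 15.6% of all genes. Trained female 3 was the lowest in 19 (21.0% of all genes), non-trained male 3 in 21 (22%) and trained male 3 in 19 (24.4%). In each of these 4 groups the library with the most lowest values also had the lowest summed slow fibre marker TPM of its group (1325, 553.7, 389.2 and 890.4). The slow fibre markers had log2 differences with training above 0 for 10 of 10 in each sex, against 50.9% of all genes in females and 49.9% in males. Their median was 0.16 in females and 0.91 in males, and none was called. These markers also share the deviations of their libraries. Without and with training, their summed TPM in females had medians of 4430 and 4047 and means of 4014 and 4302. The fast fibre sums had means of 74880 and 69270 TPM in females and 76000 and 69400 in males, with overlapping ranges. Of the 7 Schwann cell markers, 7 were above 0 in females (from 0.55 to 1.23) and 0 in males (median -0.38), and of the 6 erythroid markers 5 were above 0 in females (median 0.31) and 0 in males (median -2.08), none called. The erythroid sum of non-trained males ran from 676.1 to 11170 TPM with a median of 1369, so the male value rests on few libraries. The part of these cell types in the values of the 35 genes was not tested. The mean log2 CPM (counts scaled to the TMM-adjusted library size, used to compare 1 gene between libraries) of the 35 genes was 6.66 ± 0.166 in non-trained females and 6.78 ± 0.157 in trained females. It was 6.56 ± 0.209 in non-trained males and 6.77 ± 0.121 in trained males (SD, n = 5 each).

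**Figure D2:**
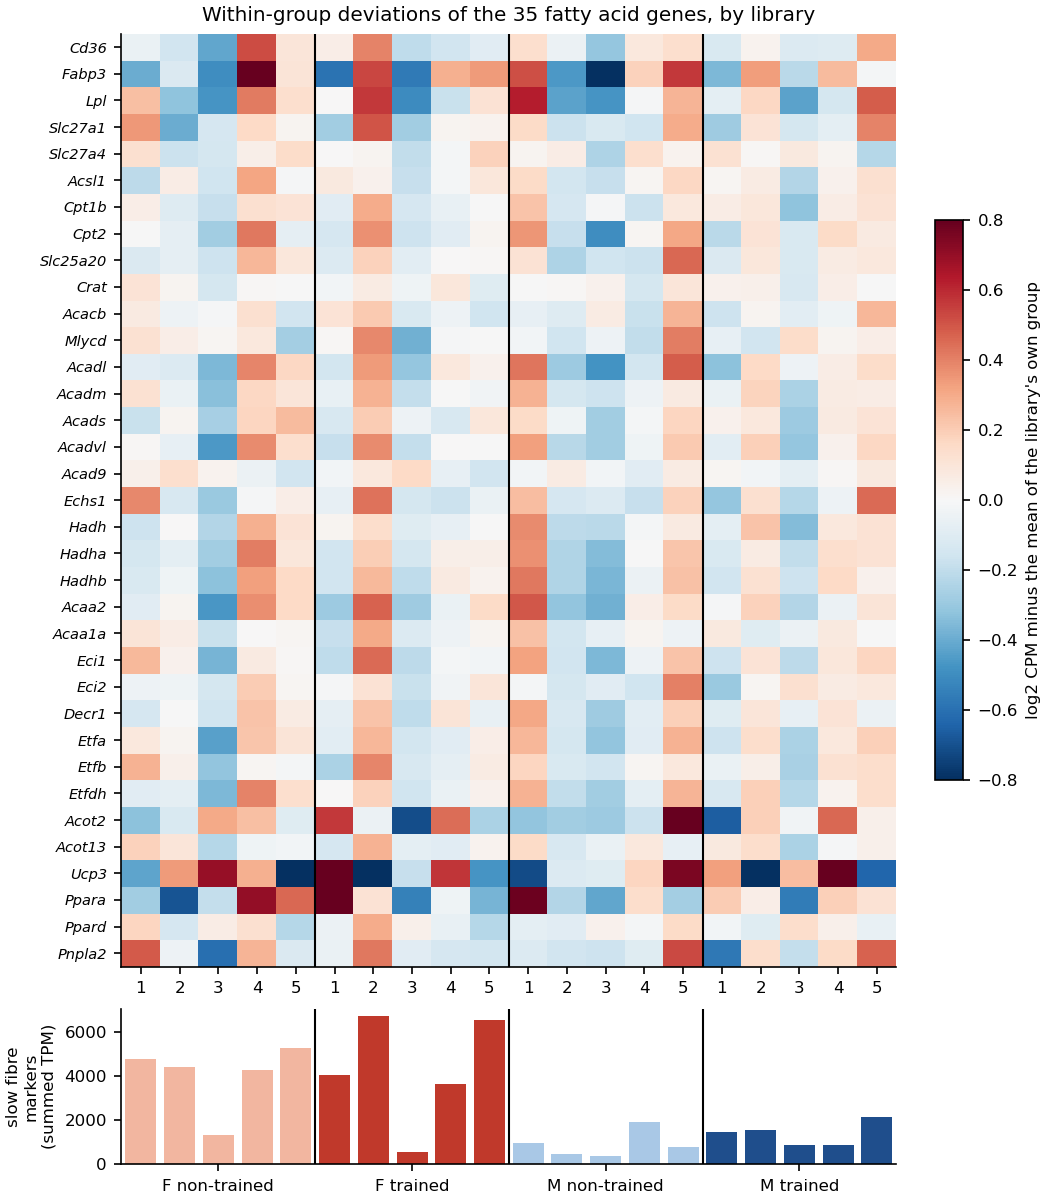
Deviation of each library (columns 1 to 5 in each group) from the mean log2 CPM of its own group, for the 35 genes (rows), red above and blue below, with the colour scale ending at 0.8 either way. Bars below give the summed TPM of the 10 slow fibre markers in the same libraries. Trained female 2 is red in most rows, and non-trained female 3 is blue in most rows with a summed TPM of 1325.

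The transcript levels per length spanned a wide range. Fabp3 was the highest, with a mean of 487.2 TPM over the 20 libraries, followed by Hadhb (328.9), Acadm (292.6), Lpl (266.4) and Crat (248.5). The lowest were Slc27a4 (3.942), Ppara (5.2), Acot2 (10.87), Ppard (14.84) and Acad9 (24.94). The spread between libraries of a group also differed by gene. The coefficient of variation of CPM, averaged over the 4 groups, was 44.7% for Ucp3, 34.4% for Fabp3, 34.3% for Ppara and 32.6% for Acot2, but 5.64% for Crat and 6.19% for Acad9.

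**Figure D3:**
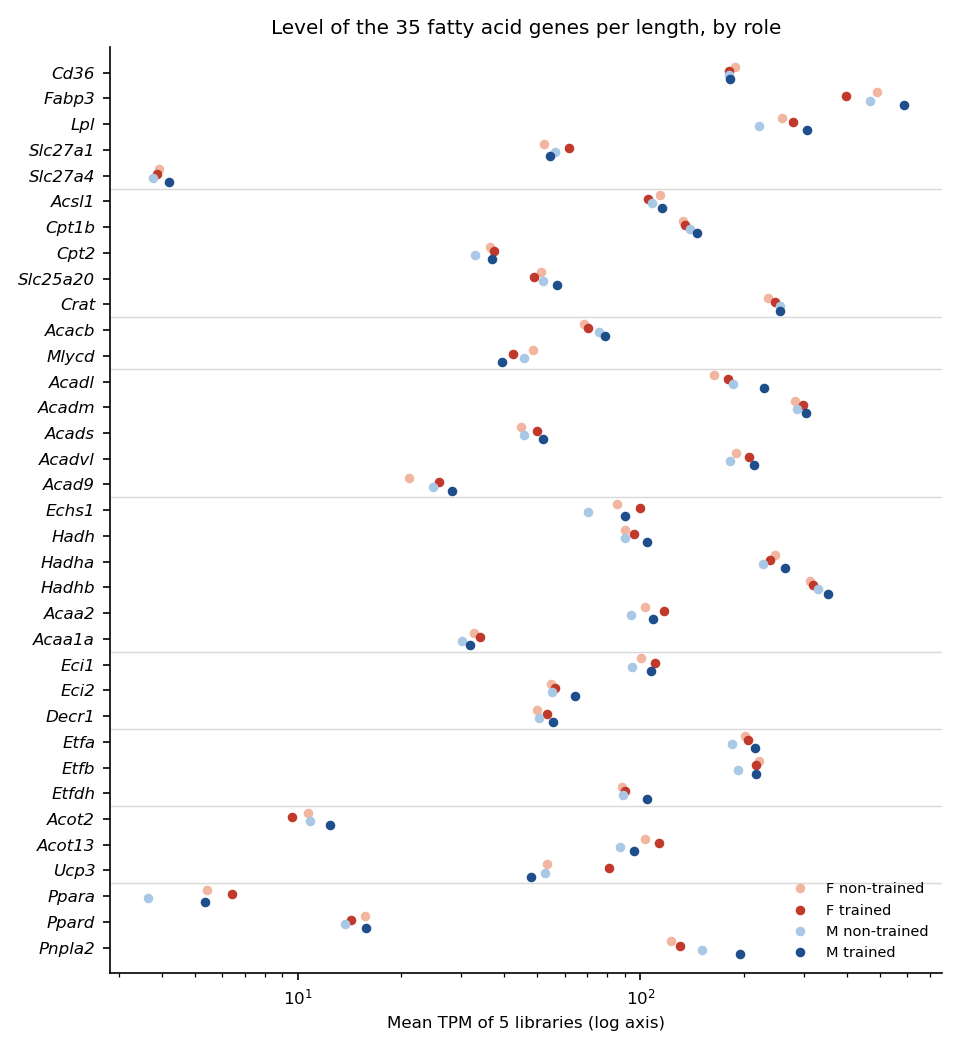
Mean TPM of 5 libraries (x axis, log scale) for each of the 35 genes (y axis, ordered by role with grey lines between roles), 1 point per group. The 4 groups lie close together for most genes, and Fabp3 at 399.2 to 589.2 TPM lies furthest right.

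The uptake genes were Lpl, the lipase of the capillary wall, Cd36, the fatty acid translocase, the transport proteins Slc27a1 and Slc27a4, and Fabp3, the heart and muscle fatty acid binding protein. Fabp3, the highest of the role, had 491.3 ± 233.4 TPM in non-trained females, 399.2 ± 145.4 in trained females, 469.3 ± 185.7 in non-trained males and 589.2 ± 104.8 in trained males (SD, n = 5). Its CPM in females was 178.3, 216.5, 166.2, 442.1 and 251.7 without training and 133.8, 292.5, 136, 245.3 and 255.6 with it. In males it was 309.7, 157.9, 124.4, 246.2 and 321.4 without training and 229.4, 371, 253.1, 351.5 and 291.7 with it. The groups overlapped in both sexes, and non-trained female 4 was the highest of all 20. The log2 difference of Fabp3 was -0.24 in females and 0.37 in males (SE 0.31 each), and their difference, 0.61 with a 95% interval from -0.31 to 1.52, did not pass the test (unadjusted p 0.18). It was 0.30 without non-trained female 4. Fabp3 made up 47.8 to 78.1% of the summed TPM of Fabp3, Fabp4 and Fabp5, the rest being mainly Fabp4, the adipocyte and endothelial form.

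Lpl had a log2 difference of 0.16 in females and 0.50 in males (SE 0.24 each, unadjusted p 0.50 and 0.05). Its CPM ran from 497.8 to 922.3 in non-trained and 542.2 to 1138 in trained females, and from 403.4 to 866.1 in non-trained and 596.9 to 1126 in trained males. Lpl is also made by adipocytes, and its highest trained male value was in trained male 5. All 10 adipocyte markers were above 0 in all 20 libraries, and their summed TPM was 229.5 to 408.8 in non-trained females, 375.4 to 545.7 in trained females, 245.2 to 523 in non-trained males and 209 to 764.5 in trained males, highest in trained male 5. Their part in the Lpl values was not tested. Cd36 was nearly level, with log2 differences of 0.02 in both sexes (SE 0.15). Slc27a1 stood at 0.32 in females and 0.08 in males (SE 0.16), and held 90.9 to 95.6% of the TPM it shares with Slc27a4. Slc27a4 stood at 0.08 and 0.20 (SE 0.097, unadjusted p 0.43 and 0.049).

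Activation to acyl-CoA and the carnitine shuttle gave small differences, with role medians of 0.06 in females and 0.14 in males. The role's highest gene, Crat, the carnitine acetyltransferase that buffers acetyl-CoA, had 236.1 ± 10.78 TPM in non-trained females, 247 ± 18.57 in trained females, 254.9 ± 27.74 in non-trained males and 256.1 ± 8.299 in trained males. Its CPM in females was 464.9, 438.1, 390.9, 434.4 and 431.1 without training and 464.5, 494.9, 461.6, 503 and 441.7 with it, so the groups overlapped. The log2 difference of Crat was 0.13 in females (SE 0.065, unadjusted p 0.057, adjusted p 0.60) and 0.02 in males. Acsl1, the main acyl-CoA synthetase of muscle, stood at -0.07 in females and 0.12 in males (SE 0.099). Cpt1b, the muscle form of the transferase that commits acyl groups to the mitochondrion, stood at 0.06 and 0.14 (SE 0.10) and made up 93.3 to 99.1% of the TPM of Cpt1a, Cpt1b and Cpt1c. Its partner on the inner membrane, Cpt2, stood at 0.09 and 0.14 (SE 0.15), and the translocase Slc25a20 at 0.0012 and 0.17 (SE 0.11).

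Malonyl-CoA, which inhibits Cpt1b, is made at the mitochondrial surface by Acacb and destroyed by Mlycd. Acacb had 68.37 ± 5.598 TPM in non-trained and 70.41 ± 8.693 in trained females, and 75.75 ± 11.08 and 78.63 ± 9.749 in males, with a log2 difference of 0.10 in each sex (SE 0.098). Mlycd was the one gene below 0 in both sexes, at -0.15 in females and -0.19 in males (SE 0.12). Its mean over the sexes, -0.17 (SE 0.087), had an unadjusted p of 0.062 and an adjusted p of 0.57. In males the CPM of Mlycd was 60.03, 54.39, 59.26, 53.18 and 80.95 without training and 51.26, 48.24, 59.57, 54.45 and 55.72 with it. The groups overlapped, and non-trained male 5 stood well above the other 9 males.

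The acyl-CoA dehydrogenases do the first step of each cycle, on very long (Acadvl), long (Acadl), medium (Acadm) and short (Acads) chains. All 5 had positive log2 differences in both sexes, from 0.18 to 0.21 in females and 0.15 to 0.33 in males. In the mean of both sexes, 4 of 5 were higher at an unadjusted p under 0.05, against 4.69% of all genes, and none was called. The count is no test of the role, since the 5 genes share the deviations of their libraries. Acadm, the highest, had 283.5 ± 47.39 TPM in non-trained and 297.5 ± 42.63 in trained females, and 285.8 ± 41.88 and 303.7 ± 28.93 in males. The ratio of Acadm to Acads TPM was 5.2 to 6.87 across the 20 libraries. In the mean of both sexes, Acads stood at 0.21 (SE 0.076, unadjusted p 0.013, adjusted p 0.41), Acadvl at 0.23 (SE 0.11), Acadl at 0.26 (SE 0.13) and Acadm at 0.16 (SE 0.078).

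Acad9 (chr3:36065979-36092853, plus strand, GRCm38), which can dehydrogenate long chains and is also an assembly factor of respiratory complex I, had the smallest p of the 35 in females and in the mean of both sexes. Its CPM in females was 27.99, 29.86, 27.8, 26.35 and 24.5 without training and 30.98, 33.35, 35.14, 30.06 and 28.24 with it. In males it was 27.74, 29.54, 27.69, 26.47 and 29.53 without training and 31.74, 30.88, 29.67, 31.56 and 33.2 with it. All 5 trained males lay above all 5 non-trained males, by a narrow margin, and in females trained female 5 overlapped the non-trained group. Trained males lay wholly above non-trained males for 2 of the 35 genes (Acad9 and Ppard), against 0.535% of all genes tested, and trained females above non-trained females for 0 of 35, against 0.637%. The log2 difference of Acad9 was 0.21 in females (SE 0.067, unadjusted p 0.0053, adjusted p 0.43) and 0.16 in males (SE 0.067, unadjusted p 0.029, adjusted p 0.99). The mean, 0.18 with a 95% interval from 0.084 to 0.28, is a 1.13-fold difference, with an unadjusted p of 0.00092 and an adjusted p of 0.30. Without non-trained female 3 and trained female 3 it was 0.17 in females (adjusted p 0.74) and 0.16 in the mean (adjusted p 0.51).

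**Figure D4:**
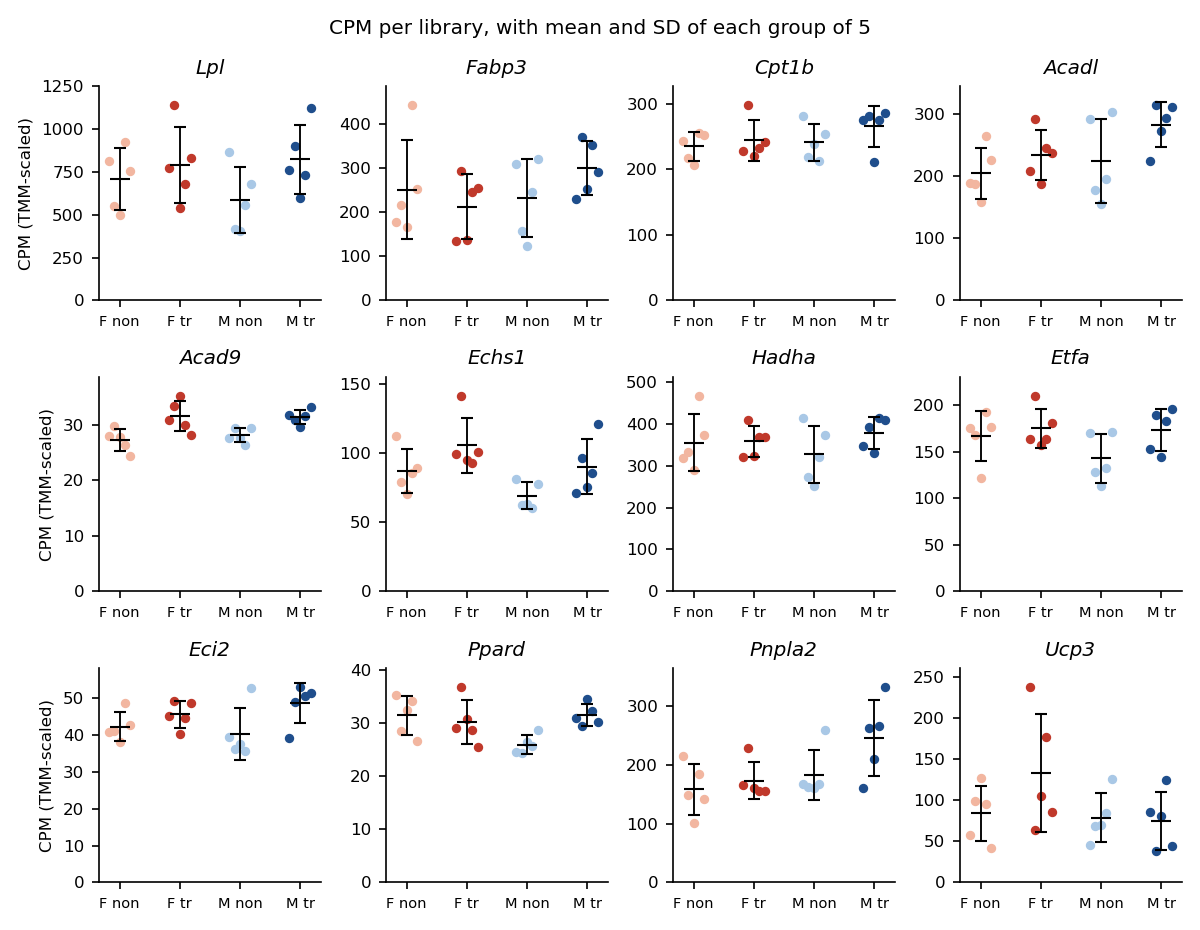
CPM on TMM-scaled library sizes (y axis, from 0) of 12 of the genes in each library of the 4 groups (F, female; M, male; non, non-trained; tr, trained), with the mean and SD of 5 libraries. Trained males lie above non-trained males without overlap for Acad9 and Ppard, and the Ucp3 values of trained females run from 63.3 to 237.6.

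The middle and last steps of the cycle are done by the short-chain hydratase Echs1, the dehydrogenase Hadh, the trifunctional protein of Hadha and Hadhb, and the thiolases Acaa2 (mitochondrial) and Acaa1a (peroxisomal). All 6 had positive log2 differences in both sexes and none passed the test. Echs1 stood at 0.27 in females and 0.38 in males (SE 0.15, unadjusted p 0.085 and 0.020), and at 0.33 in their mean (SE 0.11, unadjusted p 0.0061, adjusted p 0.38). The male value was 0.25 without trained male 5. The CPM of Echs1 in females was 112.4, 78.78, 70.12, 85.83 and 89.32 without training and 99.54, 140.8, 94.57, 92.51 and 100.4 with it. In males it was 81.18, 62.41, 63.38, 60.33 and 77.82 without training and 71.23, 96.36, 75.54, 85.73 and 121 with it. The groups overlapped in both sexes, with non-trained female 1 among the trained females and trained males 1 and 3 among the non-trained males. Hadh stood at 0.20 in the mean (SE 0.084, unadjusted p 0.028), Acaa2 at 0.24 (SE 0.12) and Acaa1a at 0.13 (SE 0.061). Acaa1a took 96.3 to 100% of the TPM it shares with its close copy Acaa1b, a share that rests on how reads were divided between the copies.

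Hadha and Hadhb share the upstream stretch printed above, and its part in their levels was not tested. Hadhb had 311.8 ± 59.03 TPM in non-trained and 319.1 ± 48.09 in trained females, and 330.9 ± 81.23 and 353.8 ± 30.46 in males. The ratio of Hadha to Hadhb TPM ran from 0.649 to 0.832 over the 20 libraries, with a coefficient of variation of 6.18%. The same measure was 8.0% for Etfa over Etfb and 8.49% for Acadm over Acads, so a narrow ratio was not particular to this pair. Within groups the Hadha to Hadhb ratio varied by 2.78 to 5.91%, and the CPM of Hadha and Hadhb by 15.1% and 16% on average. Hadha over Hadhb stood at 0.761 to 0.817 in non-trained females and 0.649 to 0.731 in non-trained males, without overlap. It was 0.721 to 0.832 in trained females and 0.715 to 0.781 in trained males, with overlap. The lack of overlap in non-trained mice was noticed after the values were seen and was not tested. For training, Hadha stood at 0.01 in females and 0.21 in males (SE 0.13) and Hadhb at 0.05 and 0.15 (SE 0.14).

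Eci1, Eci2 and Decr1 prepare unsaturated chains for the cycle. All 3 were above 0 in both sexes. Eci1, the highest, had 100.5 ± 12.53 TPM in non-trained and 110.4 ± 24.19 in trained females, and 94.41 ± 18.64 and 107 ± 10.16 in males. Eci2, an isomerase of mitochondria and peroxisomes, stood at 0.11 in females (SE 0.10) and 0.27 in males (SE 0.10, unadjusted p 0.016, adjusted p 0.99). In males its CPM was 39.52, 36.23, 37.45, 35.67 and 52.7 without training and 39.26, 48.84, 52.85, 50.58 and 51.27 with it. Trained male 1 and non-trained male 5 each lay among the other group, and the other 8 males did not overlap. Eci1 stood at 0.20 and Decr1, the dienoyl-CoA reductase, at 0.16 in the mean of both sexes (SE 0.10 and 0.075).

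Electrons from the dehydrogenases pass to electron transfer flavoprotein (Etfa and Etfb) and its oxidoreductase Etfdh. Etfb, the highest per length, had 221.3 ± 21.47 TPM in non-trained and 217.5 ± 39.62 in trained females, and 192.6 ± 20.97 and 216.9 ± 15.15 in males. The ratio of Etfa to Etfb TPM was 0.803 to 1.07 in the 20 libraries. Etfa stood at 0.07 in females and 0.28 in males (SE 0.13, unadjusted p 0.60 and 0.047). Etfdh stood at 0.10 and 0.26 (SE 0.13), and Etfb at 0.04 and 0.16 (SE 0.12).

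Ucp3, an uncoupling protein of muscle mitochondria whose RNA rises with fatty acid supply, varied most. Its CPM in females was 58.36, 98.82, 126.8, 95.09 and 42.07 without training and 237.6, 63.3, 104.9, 177.4 and 85.77 with it. In males it was 45.43, 69.16, 69.85, 84.08 and 125.9 without training and 85.52, 38.76, 80.66, 124.8 and 43.91 with it. The groups overlapped in both sexes, and trained females 1 and 4 were the highest of all 20. The log2 difference of Ucp3 was 0.67 in females and -0.08 in males (SE 0.40 each), and their difference was -0.75 with a 95% interval from -1.95 to 0.45 (unadjusted p 0.21), or -0.42 without trained female 1. Pdk4, the kinase that shuts off pyruvate dehydrogenase, was also highest in trained females 1 and 4, at 1628 and 1016 CPM against 407 to 697.3 in the other trained females. Ppargc1a, the coactivator PGC-1 alpha, was highest in the same libraries, at 119.5 and 107 CPM against 35.67 to 45.57. Both were picked from the list of further PPAR and PGC-1 genes, whose other genes are not given by library here. A link of either gene with Ucp3 was not tested.

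The thioesterases Acot2 and Acot13 free fatty acids from coenzyme A in the mitochondrion. Acot13 had 103 ± 6.965 TPM in non-trained and 113.5 ± 15.1 in trained females, and 87.36 ± 6.914 and 95.55 ± 6.556 in males. Its training difference was 0.19 in females and 0.17 in males (SE 0.092), and 0.18 in their mean (SE 0.065, unadjusted p 0.012, adjusted p 0.41). The female value was 0.12 without trained female 2. Acot2 stood at -0.09 in females and 0.25 in males (SE 0.28). Acot2 has a near-identical neighbour, Acot1, and took 64 to 95.4% of their summed TPM, so its values are uncertain.

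Ppard and Ppara are fatty acid receptors of the PPAR family, and Pnpla2 is the triglyceride lipase of the lipid droplet. Ppard lies at chr17:28232700-28301474 (plus strand, GRCm38). The CPM of Ppard in males was 24.46, 24.29, 26.48, 25.58 and 28.73 without training and 30.94, 29.33, 34.57, 32.27 and 30.13 with it. All 5 trained males lay above all 5 non-trained males. In females it was 35.15, 28.49, 32.5, 34.13 and 26.67 without training and 28.95, 36.64, 30.69, 28.63 and 25.45 with it, and these groups overlapped. The log2 difference of Ppard was 0.28 in males, a 1.21-fold difference (SE 0.091, unadjusted p 0.0060, adjusted p 0.99), and -0.06 in females (SE 0.091). Ppard had the smallest interaction p of the 35, with a difference between the sexes of 0.34 and a 95% interval from 0.072 to 0.61 (unadjusted p 0.015, adjusted p 1). It was the only one of the 35 with an unadjusted interaction p under 0.05, against 4.18% of all genes tested. Acsl1 had an interaction value of 0.19 (SE 0.14, unadjusted p 0.19), or 0.10 without non-trained female 4.

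Ppara stood at 0.50 in females and 0.47 in males (SE 0.29), and at 0.48 in their mean (SE 0.21, unadjusted p 0.029, adjusted p 0.49), the largest mean difference of the 35. The ratio of Ppard to Ppara TPM was 1.23 to 5.68 across the 20 libraries. Pnpla2 had 122.8 ± 29.7 TPM in non-trained and 130.2 ± 22.08 in trained females, and 151.2 ± 43.1 and 195.5 ± 48.36 in males. Its CPM in males was 166.6, 161.8, 159.9, 168.1 and 258.8 without training and 160.9, 263.3, 209.2, 265.5 and 331.4 with it. Trained male 1 and non-trained male 5 crossed into the range of the other group. The log2 difference of Pnpla2 was 0.43 in males (SE 0.20, unadjusted p 0.049, adjusted p 0.99) and 0.13 in females (SE 0.20).

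Between the sexes, 1 of the 35 genes passed the test, where 8.03% of all genes were called lower in males and 9.91% higher in the mean of both training states. Acot13 (ENSMUSG00000006717, chr13:24817948-24831540, minus strand, GRCm38) was lower in males than in females, by 0.32 on the log2 scale in the mean of both training states (SE 0.065, 95% interval -0.45 to -0.18, 0.804-fold, adjusted p 0.0023), and passed in each of the 20 fits that left out 1 library (adjusted p 0.0012 to 0.0057). Its CPM in non-trained mice was 52.26, 49.16, 39.18, 44.89 and 45.19 in females and 41.6, 34.21, 36.03, 39.65 and 35.69 in males. In trained mice it was 47.76, 63.48, 49.64, 49.34 and 53.48 in females and 44.1, 46.16, 35.15, 41.51 and 43.08 in males. All trained males lay below all trained females, and in non-trained mice female 3 lay among the males. In the mean of both training states, edgeR also called 10 of 10 slow fibre markers lower in males, against 8.03% of all genes. It called 10 of 10 macrophage markers higher, against 9.91%. The part of these markers in the Acot13 difference was not tested. Lower without overlap in trained mice was 1 of 35 genes, against 3.46% of all genes tested.

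Within a training state the call of Acot13 was near the threshold. Its difference was -0.33 in trained mice (SE 0.092, adjusted p 0.039) and -0.30 in non-trained mice (SE 0.092, adjusted p 0.059). The call in trained mice was lost in 10 of 20 fits that left out 1 library, with an adjusted p of up to 0.12 without trained male 3 and 0.11 without trained female 2, and with library size alone in place of TMM (-0.26, adjusted p 0.086). In non-trained mice it was gained with DESeq2 (adjusted p 0.026). Without non-trained female 3 and trained female 3, Acot13 was called lower in non-trained males (-0.36, adjusted p 0.035), in trained males (-0.35, adjusted p 0.042) and in their average (-0.35, adjusted p 0.0015). Non-trained female 3 had the lowest Acot13 value of all females (39.18 CPM), so leaving it out widens the difference. The males lowest in slow fibre markers were not left out together, so this fit is no check of the call. The training differences of Acot13 in the sexes differed by -0.03 (SE 0.13).

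**Figure D5:**
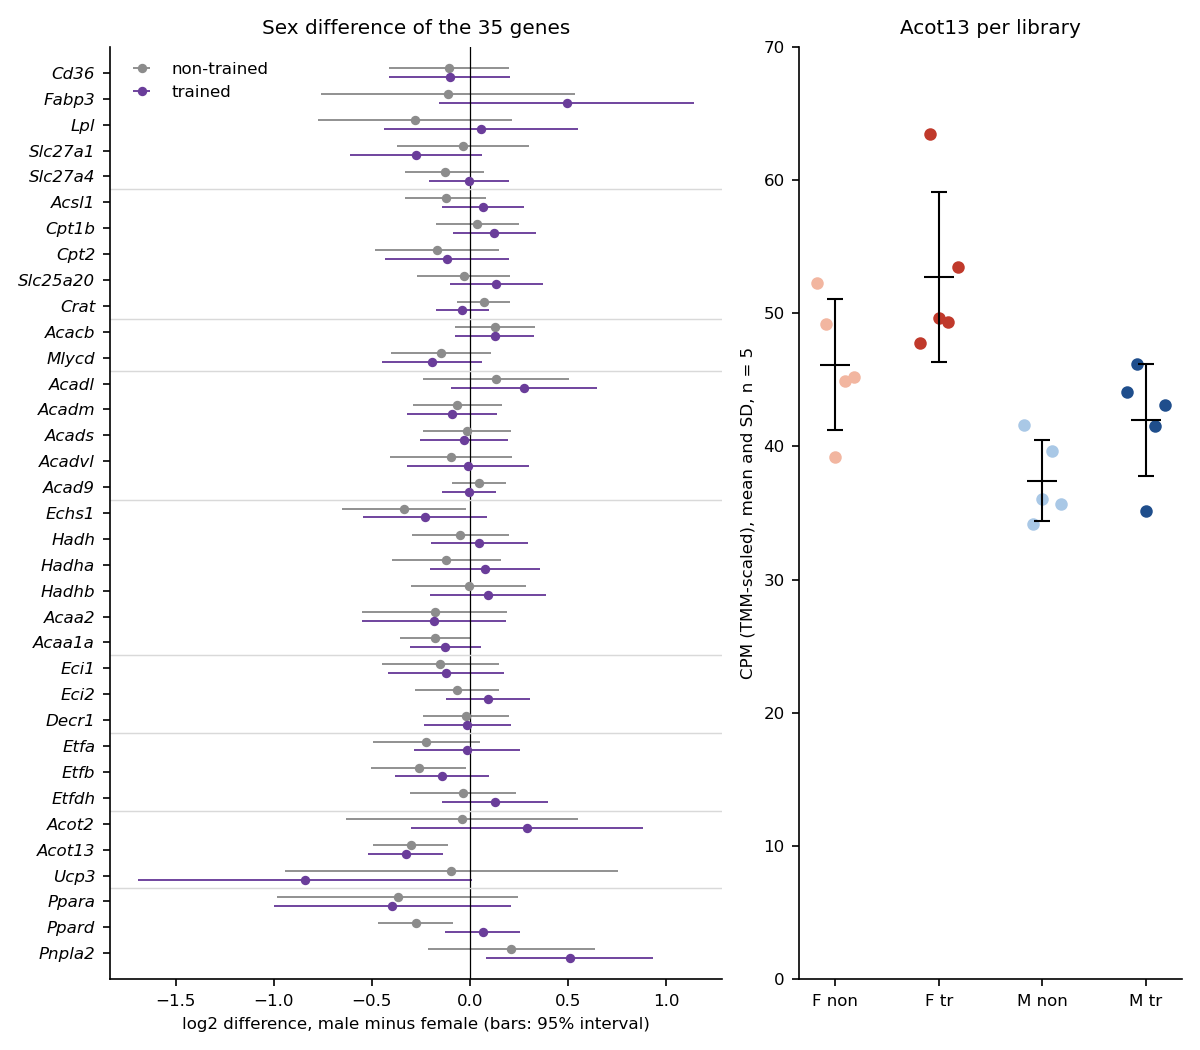
Left, log2 difference between males and females (x axis) for each of the 35 genes (y axis), in non-trained (grey) and trained mice (purple), 5 against 5 libraries each, as edgeR estimates with 95% intervals. Right, CPM of Acot13 on TMM-scaled library sizes in each library (y axis from 0; F, female; M, male; non, non-trained; tr, trained), with mean and SD of 5, where all 5 trained males lie below all 5 trained females.

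The counts of the 35 genes called between the sexes stood as follows beside the shares of all genes. In the mean of both training states 1 of 35 was called lower, against 8.03% of all genes, and 0 of 35 higher, against 9.91%. In trained mice 1 of 35 was called lower, against 2.22%, and 0 of 35 higher, against 3.39%. In non-trained mice edgeR called 0 of 35, against 5.21% of all genes in either direction, with 4 of 35 lower at an unadjusted p under 0.05, against 10.1%. DESeq2 called 2 of the 35 there, Acot13 and Ppard, but it also called more of all genes, 1465 against 818 with edgeR. The median log2 difference (male minus female) of the 35 was -0.10 in non-trained mice with 6 above 0, against 50.8% of all genes, and -0.01 in trained mice with 15 above 0, against 50.5%. With library size alone in place of TMM, 13 and 22 of the 35 were above 0, against 59.8% and 61.5% of all genes, whose median moved to 0.06 and 0.07. The median in non-trained mice was -0.01 with 17 above 0 without non-trained female 4, and -0.18 with 5 above 0 without non-trained male 5. It was -0.16 and -0.15 without non-trained female 3 or non-trained male 1, and -0.05 and -0.04 without non-trained male 2 or 3. The median in trained mice, near 0, changed sign without trained female 2 (0.05 with 22 above 0), trained male 3 (0.02) or trained male 1 (0.01). Without non-trained female 3 and trained female 3 together, the medians were -0.15 and -0.05. No direction between the sexes is therefore read for the list.

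The other members nearest to the threshold between the sexes were spread over the roles. In non-trained mice Ppard stood at -0.28 (SE 0.091, adjusted p 0.079), Etfb at -0.26 (SE 0.12, adjusted p 0.19) and Echs1 at -0.34 (SE 0.15, adjusted p 0.20). In trained mice Pnpla2 stood at 0.51 (SE 0.20, adjusted p 0.15), Ucp3 at -0.84 (SE 0.40, adjusted p 0.25) and Slc27a1 at -0.27 (SE 0.16, adjusted p 0.35). Ucp3 was at -0.53 without trained female 1, and Slc27a1 at -0.13 without trained female 2. For the average of both states, Echs1 stood at -0.28 (adjusted p 0.072), Pnpla2 at 0.36 (0.091), Acaa1a at -0.15 (0.091) and Etfb at -0.20 (0.093). Without non-trained female 3 and trained female 3 together, Echs1, Etfb and Acaa1a were called lower in males as well (adjusted p 0.046, 0.039 and 0.05). That choice left out females only, and these libraries were the lowest of their groups in 25 and 19 of the 35 genes. Leaving them out raises the female means of those genes, so the added calls are no support for a sex difference.

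Acsl1, with log2 differences between the sexes of -0.12 and 0.07 (SE 0.099), made up a smaller part of the long-chain synthetases in males. Its share of the summed TPM of Acsl1, Acsl3, Acsl4, Acsl5 and Acsl6 was 65.7 to 74.8% in trained females and 51.4 to 63.8% in trained males, without overlap. It was 61.8 to 75.8% and 53.1 to 65.6% in non-trained females and males, with overlap. Acsl3, a synthetase of lipid droplets and the endoplasmic reticulum, was higher in males in both states, by 1.19 (SE 0.20, adjusted p 0.0017) and 1.40 (SE 0.20, adjusted p 0.00035). The CPM of Acsl3 was 13.27 to 17.53 in the 10 females and 21.67 to 52.07 in the 10 males. Acsl6 and Acsl4 were higher in trained males, by 0.84 (adjusted p 0.0055) and 0.48 (adjusted p 0.015), and Vldlr, a lipoprotein receptor, in both states, by 0.68 (adjusted p 0.017) and 0.76 (adjusted p 0.0086). Of 29 tested genes of uptake, binding and activation outside the 35, only these 4 were called higher in trained males (3.39% of all genes). None there was called lower (2.22% of all genes). Averaged over both states, 10 of the 29 were called, against 9.91% of all genes called higher and 8.03% called lower. Those higher were led by Acsl3 (1.3), Vldlr (0.72) and Acsl6 (0.70), and those lower by Acot9 (-0.29), Acot7 (-0.31) and Acad11 (-0.17).

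The neighbouring pathways were read from lists that are not members. For training none of their genes was called. All 22 genes of the tricarboxylic acid cycle, which takes up the acetyl-CoA of beta-oxidation, were above 0 in each sex, with medians of 0.23 in females and 0.14 in males, against 0.11 and 0.20 for the 35 fatty acid genes. Of the 22, 14 had an unadjusted p under 0.05 in females and 1 in males, where the background in the higher direction was 4.27% and 2.24%. Sdha had the smallest p in females (0.32, SE 0.088, adjusted p 0.36) and Idh3g in the mean (0.20, adjusted p 0.30). Fatty acid synthesis genes had a median of 0.71 in females and 0.38 in males over 13 genes, led by Fasn, the fatty acid synthase, at 2.54 and 2.62 (SE 0.73 and 0.74, adjusted p 0.39 and 0.99). The CPM of Fasn was 17.53 to 68.66 in non-trained and 65.23 to 371.7 in trained females, and 20.72 to 35.29 in non-trained and 43.26 to 639.4 in trained males. Its highest value was in trained male 5, which also had the highest summed TPM of adipocyte markers (764.5), and their part was not tested.

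Of 29 further PPAR and PGC-1 genes, the median training difference was -0.02 in females and 0.03 in males. Gabpa had the smallest p in females (-0.21, adjusted p 0.49) and Prkag3 in the mean (-0.40, adjusted p 0.43). The 20 peroxisomal genes had medians of 0.02 and 0.06, led by Phyh in females (0.34, adjusted p 0.48) and Amacr in males (0.31, adjusted p 0.99). The 15 tested genes of lipolysis and the lipid droplet had medians of 0.13 and -0.01, led by Plin3 in females (0.52, adjusted p 0.47) and Dgat1 in males (0.35, adjusted p 0.99). The 17 glycolysis genes had medians of 0.14 and 0.02, led by Gapdh in females (0.39, adjusted p 0.34) and Hk2 in males (0.33, adjusted p 0.99). Among the 29 other uptake genes Dbi led in females (0.31, adjusted p 0.49) and Fabp5 in males (0.56, adjusted p 0.99). No gene of these lists was called for the interaction, where Hk2 stood at 0.43 (SE 0.15, unadjusted p 0.0077, adjusted p 1). In the mean of both sexes the leading genes of these lists were Phyh, Plin3 and Fasn, with Got2 (0.32) and Pgk1 (0.29), and their adjusted p lay between 0.17 and 0.32.

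Between the sexes, genes of these lists called lower in males in both training states were Suclg2 of the tricarboxylic acid cycle (-0.34 in each, adjusted p 0.016 and 0.015) and Mlxipl, a sugar-sensing factor (-0.42 and -0.51, adjusted p 0.041 and 0.014). Hsd17b4, the peroxisomal multifunctional enzyme, and Prkag1, a subunit of the AMP-activated kinase, were lower in non-trained males (-0.32 and -0.41, adjusted p 0.039 and 0.030). Plin4, a lipid droplet coat protein, and Ldha were lower in trained males (-0.72 and -0.46, adjusted p 0.016 and 0.044). Over both states, where 8.03% of all genes were called lower in males and 9.91% higher, 6 of 22 genes of the tricarboxylic acid cycle were called lower and none higher, led by Suclg2, Sdhd (-0.25, adjusted p 0.013) and Idh3a (-0.21, adjusted p 0.016). Of 17 glycolysis genes 5 were lower, led by Ldha (-0.39), Eno3 (-0.31) and Pgam2 (-0.33), and 2 higher, Phka1 (0.24) and Gpi1 (0.21). Of the 29 PPAR and PGC-1 genes 3 were higher, Ucp2 (0.75), Prkab1 (0.25) and Prkag3 (0.46), and 3 lower, Prkag1 (-0.34), Tfam (-0.20) and Pdk4 (-1.08). Srebf1, a driver of lipid synthesis, was higher (0.47) and Mlxipl lower, and Plin4 (-0.48), Hsd17b4 (-0.24) and Pex11a (-0.23) were lower.

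Summed macrophage markers, all 10 of them above 0 in every library, ran from 38.17 to 131.1 TPM in the 10 females and 104.2 to 726.1 in the 10 males, and the slow fibre sums were lower in most males, as given above. edgeR called 6 of 10 slow fibre markers lower in non-trained males and 1 in trained males, and 5 and 6 of the 10 macrophage markers higher. Over all genes, 5.21% were called in either direction in non-trained mice, and 2.22% lower and 3.39% higher in trained mice. For the average of both states these shares were 8.03% lower and 9.91% higher. Of the 7 fibroblast markers, 7 were above 0 in the average of both states (median 0.45, 2 called). Of the 6 erythroid markers, 6 were above 0 (male minus female) in non-trained mice (median 1.999, 2 called) and 0 in trained mice (median -0.38, none called). The erythroid sum in non-trained males ran from 676.1 to 11170 TPM, with a median of 1369 and a mean of 3585, so few libraries weigh heavily in it. Of the 7 Schwann cell markers, 7 were above 0 in non-trained mice (median 0.46) and 0 in trained mice (median -0.90), none called. The part of these markers in the sex comparisons was not tested.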

How the data were processed

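Poly(A) RNA of wild-type mouse muscle was sequenced with a strand-directional kit, per the labels' protocols. The authors deposited 1 table per library with expected counts of each gene (estimates, as RSEM gives them), and 29.0% of the values above 0 were not whole numbers. The deposited TPM values stand beside them, per the file headers. They served to describe gene levels, marker sums, shares and ratios, also between libraries and groups. The tests used counts, but the female libraries left out together were chosen by their TPM sums of slow fibre markers. The submitters' processing notes name the build GRCm38 and, with no roles given, RSEM 1.3.1, STAR 2.5.1, cutadapt, Trim Galore, limma and edgeR. The annotation release and the strand setting are not given in the sources used here. RSEM divides reads that fit several genes by estimation, so near-identical copies are uncertain. Symbols and coordinates are those of GENCODE M21, which matched 53360 of 53465 identifiers. The rest held 0.00673% of counts.

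Expected counts were rounded, filtered with filterByExpr (minimum count 10) and scaled by TMM. A single fit held 1 coefficient for each of the 4 groups in edgeR 4.0.16 (robust quasi-likelihood, 16 residual degrees of freedom, R 4.3.3), and 7 comparisons were tested with Benjamini-Hochberg adjustment over all 15709 genes, with calls at 0.05. CPM uses TMM-scaled library sizes, and log2 CPM a prior count of 2. The code was tested on simulated counts. Alternatives were DESeq2 1.42.0, limma-voom (limma 3.58.1), other scalings and filters, fits of the compared groups only, fits without the 20 highest genes and those of mitochondrial DNA, and leaving out each library. Leaving out 2 female libraries together was added after seeing the data, and no male libraries were left out in the same way.

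The genes and all lists were chosen with earlier results of these data known. By rule, every member is accounted for, members past the threshold or else the 4 with the smallest p are named per comparison, the highest gene of each role by TPM is given in all groups, and from other lists up to 3 called genes per direction, or the 1 with the smallest p, are named. Some genes that this rule would name from the other lists are not reported here. Library totals were 22043145 to 38483572, and their size and the 5 libraries per group limit the precision.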

Additional observations from a re-analysis of the deposited data

Results flagged for a closer look

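In 11 of the 140 groups of 5 libraries looked at (35 genes in 4 groups, 7.86%), 1 library lay far from the other 4 relative to the range of the group. Chance flags about 1 in 20 groups (5%), and the genes are not independent of each other. The 11 fell on 9 genes and on 3 libraries. Trained female 2 was far above the other trained females for Echs1 (140.8 CPM against 92.51 to 100.4), Eci1 (107.6 against 67.96 to 77.86), Cpt1b (297.2 against 220.4 to 241.6) and Pnpla2 (228.9 against 154.8 to 164.9). Non-trained male 5 was far above its group for Acot2 (28.47 against 10.99 to 12.16), Pnpla2 (258.8 against 159.9 to 168.1), Eci2 (52.7 against 35.67 to 39.52) and Mlycd (80.95 against 53.18 to 60.03). Trained male 3 was far below its group for Cpt1b (210.9 against 274.7 to 286.5), Acads (50.34 against 62.97 to 66.35) and Ppara (7.177 against 10.97 to 12.19). The summed TPM of the 10 macrophage markers was also highest in trained male 3, at 726.1 against 104.2 to 238.1 in the other trained males, and its part in these values was not tested.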

How the results depend on the processing

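No paired analysis was possible because the library numbers in the labels run through the series and no number is shared between groups. For training in females, in males, in their mean and for the interaction, 0 of the 35 genes passed the threshold under every alternative run. For sex in non-trained mice, 0 became 2 with DESeq2, 1 without the 2 female libraries lowest in slow fibre markers, and 0 to 2 with 1 library left out. For sex in trained mice, the 1 call became 0 with library size alone, with no low-count filter and with only the groups compared, and 0 to 1 with 1 library left out. For the mean of both training states, 1 became 2 with DESeq2 (Echs1 added), 4 without the 2 female libraries, and 1 to 3 with 1 library left out. Acot13 kept its call there in 20 of 20 such fits. No gene past the threshold changed direction in any alternative run.

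Counts over all genes moved more. DESeq2 gave 33 in trained against non-trained females, 5 in males, 30 in the mean and 1 in the interaction, where edgeR gave 0, 0, 2 and 0. The mean gave 0 with limma-voom, 1 with no filter, 1 without the 2 female libraries, and 0 to 7 with 1 library left out. For sex, edgeR's 818 in non-trained mice became 1465 with DESeq2, 448 with only the groups compared, and 435 to 1038 with 1 library left out. The 880 in trained mice became 1401, 558 with no filter, and 494 to 1239. With library size alone the higher and lower calls were 541 and 180, 832 and 213, and 2061 and 682, against 493 and 325, 532 and 348, and 1556 and 1261 with TMM. By deposited TPM, 15 in place of 6 of the 35 genes had a higher mean in males without training, and 24 in place of 15 with it.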
